A study of Canis lupus familiaris with 13 samples.

Results

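Mitochondria carry their own ribosome, and the 57 genes described here encode its proteins and 3 of the factors that run it. They were chosen by name: every probe set whose array annotation gave a single symbol beginning MRPL or MRPS with a number (33 genes of the large subunit and 21 of the small) or MTIF with a number, or the symbol TUFM, entered. The 57 genes were measured by 82 of the 23836 probe sets and were 57 of the 6540 genes that the annotation named singly. Each gene was represented by its probe set of highest mean signal over the 13 arrays, and all 57 passed the filter on low signal, a mean of log2(signal + 16) of at least 6.95, or a signal of 108. The RefSeq gene table for the dog held 79 genes with such symbols, and the rest of these, MRPL12 and MRPL44 among them, were not analysed here.

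The mitochondrial ribosome, or mitoribosome, translates the few messages of mitochondrial DNA, all of which encode core subunits of the respiratory chain and ATP synthase. Its RNAs come from mitochondrial DNA, whereas its proteins are encoded in the nucleus, made on cytosolic ribosomes and imported. Heart muscle is densely packed with mitochondria, and inherited faults of mitoribosomal proteins and translation factors are known in humans as causes of combined respiratory chain deficiency, in some families with cardiomyopathy.

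Each of 13 separately named samples of dog heart tissue gave total RNA for 1 Affymetrix canine array. The control group was heart tissue of 3 mongrels (P1, P4 and P9), and the paced group was tissue of 3 mongrels whose hearts had been paced (LV01, LV02 and LV04), a means of bringing on heart failure in dogs. Dilated cardiomyopathy, a disease of widened, weakly beating ventricles, was represented by 3 Dobermans (K, L and R) and 4 Boxers (1 to 4). No healthy Doberman or Boxer was measured, so breed and disease cannot be told apart in a comparison with the controls, and the labels gave no age, sex, chamber, pacing rate or pacing time. The p-values measure the spread between separately named samples, pooled over the 4 groups.

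The deposited values were MAS5 signals scaled to a common level, and every array had a 2% trimmed mean of 500. The median signal was 132.1 to 146.2 on the control and Boxer arrays, 207.6 to 219.3 on the paced arrays, and 160.3 for Doberman K, with 234.4 and 219.6 for the other two. GAPDH has control probe sets at both ends of its message, and the signal of the 3' one over that of the 5' one rises when RNA is broken. This GAPDH ratio was 0.967 to 1.09 on the 10 arrays that were not of Dobermans, 1.08 for Doberman K, 2.10 for L and 3.62 for R. L and R therefore stood apart, and the counts and most named changes of the Dobermans are set below beside those that K alone gave. The counts of cell markers were not taken with K alone. Cardiomyocyte markers, 11 of the 12 listed, were present on all arrays, with a summed signal of 230763 to 335470 in the controls, 250813 to 493978 in the Dobermans, 235169 to 264613 in the Boxers and 203491 to 227865 in the paced mongrels. Among the Dobermans the sum was 250813 in K, inside the control range, and 493978 in L and 461598 in R, above it.

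The mean signals of the 57 probe sets ran from 158.3 (MRPS18C) through 180.3 (MRPS27) and 325.2 (MRPS5) to 3555 (MRPS36), 3802 (MRPL40) and 4176 (MRPL14). These are signals of different probe sets and were not compared with each other. MRPS36 is now known mainly as a subunit of the 2-oxoglutarate dehydrogenase complex, although it keeps its ribosomal name. The genes varied little between samples of a group except among the Dobermans: the median SD over the 57 genes, on the log2 scale, was 0.16 in the controls, 0.18 in the paced mongrels, 0.15 in the Boxers and 0.41 in the Dobermans. Over all 5240 tested genes the corresponding medians were 0.20, 0.20, 0.19 and 0.47, so this order was shared by genes in general. By these medians a spread pooled over the groups was larger than that of the controls, paced mongrels and Boxers. It was smaller than that of the Dobermans, and every p-value of the main fit rests on it. The member with the highest SD in the Dobermans was MTIF3, at 1.51.

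**Figure D1:**
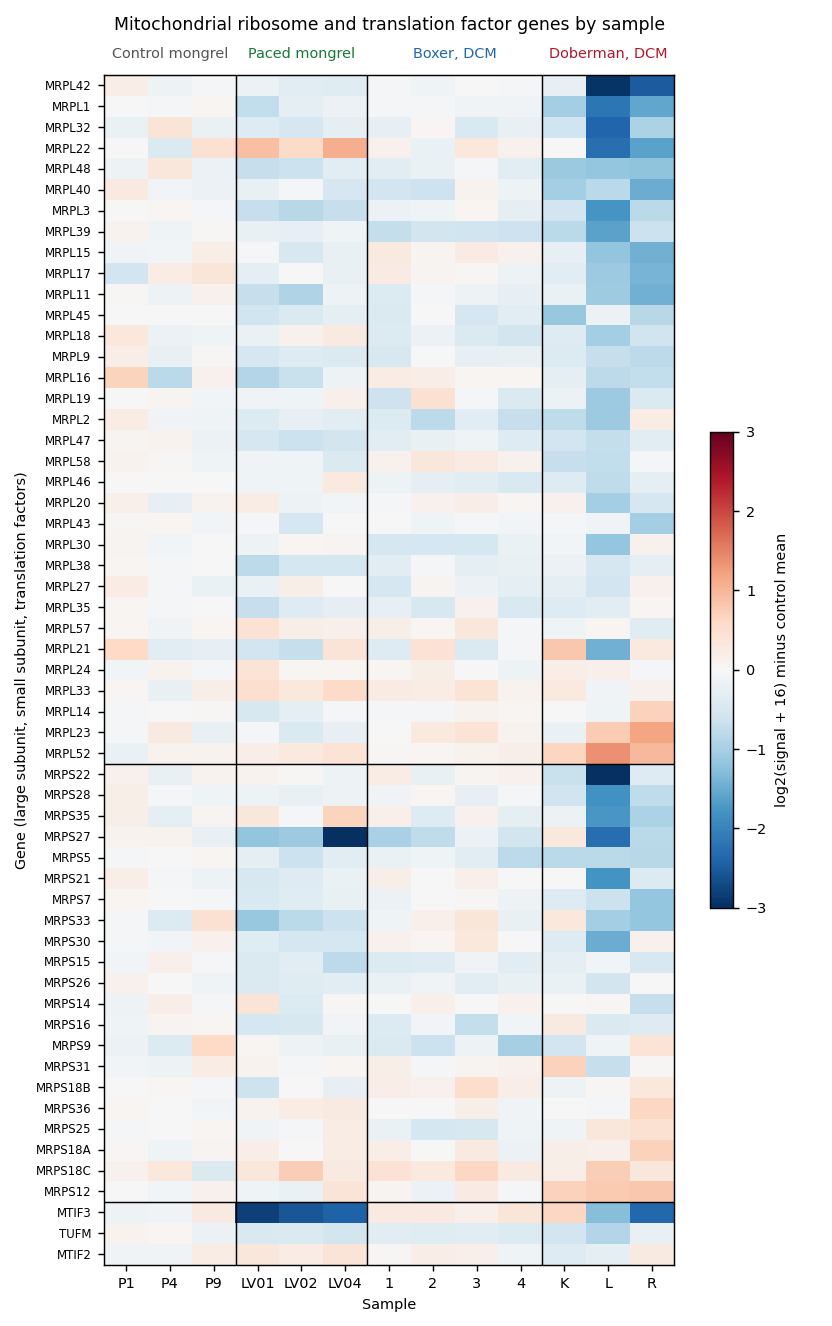
Heat map of 57 genes (rows, ordered within each class by the Doberman mean) in 13 samples (columns, by group). Colour gives log2(signal + 16) minus the control mean, from -3 (blue) to 3 (red). Doberman L has the lowest median of the 57 genes, -0.77, and MTIF3 is dark blue in the 3 paced samples and in Doberman R.

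The first comparison asked how the genes stood in Dobermans with dilated cardiomyopathy against control mongrels. Of the 57, 20 fell and 2 rose at an adjusted p under 0.05, while 35 did not pass. Over all tested genes 26.0% passed, 14.1% lower and 11.9% higher, against 38.6% of the 57, 35.1% lower and 3.51% higher. The median log2 change of the 57 was -0.53, with an interquartile range of -0.93 to -0.13, and that of all tested genes was 0.04. In the large subunit 15 of 33 genes fell and 1 rose, in the small subunit 4 of 21 fell and 1 rose, and of the 3 factors 1 fell; the difference between the subunits was not tested. All 3 Dobermans lay below all 3 controls for 21 of the 57 genes and above them for 3, against 15.7% and 18.3% of all tested genes.

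**Figure D2:**
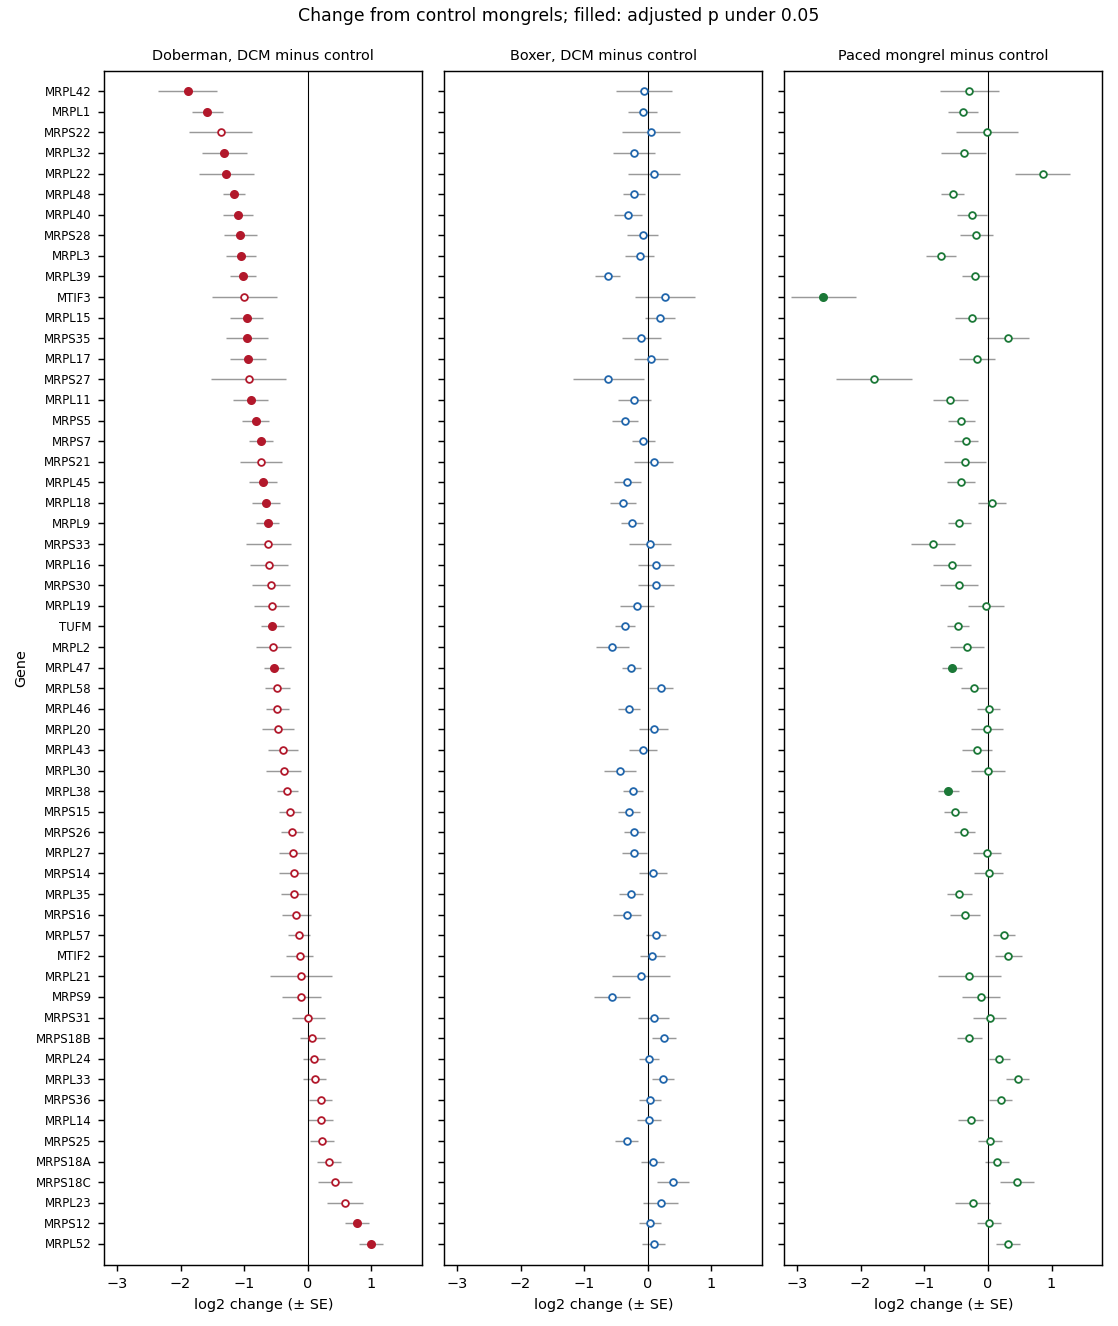
Log2 change from the control mongrels with its SE for 57 genes in the Dobermans (left), Boxers (middle) and paced mongrels (right), with genes ordered by the Doberman change. Filled points passed at an adjusted p under 0.05: 22 in the Dobermans, 0 in the Boxers and 3 in the paced mongrels.

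The count of 22 rested strongly on which samples entered. With Dobermans L and R left out, so that K stood alone and was assumed to vary like the other groups, 4 genes passed, all lower: MRPL1, MRPL39, MRPL45 and MRPL48. The median change of the 57 was then -0.21, and 3.23% of all tested genes passed. Without control P1, P4 or P9 the count was 10, 11 or 13, where 10.1%, 11.6% and 12.7% of all tested genes passed. Without Doberman L it was 12, where 8.97% of all passed, and without K it was 30, where 49.2% did. With the GAPDH ratio as a covariate only MRPL48 passed, where 0.763% of all tested genes did. With only the controls and Dobermans in the fit none of the 57 passed in limma, although 20 had an unadjusted p under 0.05. Of all tested genes 0.153% passed in that fit. The sample medians of the 57 genes, relative to the control mean, were -0.21 in K, -0.77 in L and -0.39 in R, and 34, 42 and 34 of the genes lay below the lowest control. After quantile normalization 17 passed, where 21.3% of all tested genes did. MRPL45 (-0.56), MRPL47 (-0.37), MRPL9 (-0.51), MRPS35 (-1.10) and TUFM (-0.40) did not pass. With each array centred on its median, which shifted the median change of all genes to -0.40, 33 were lower and 1 was higher. Of all tested genes 27.1% were lower there and 2.63% higher. The GAPDH ratio was raised in L and R, and its part in the changes was not tested beyond the covariate.

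Among the large subunit proteins, MRPL1 belongs to the flexible stalk at which, in bacteria, its counterpart L1 helps spent transfer RNA leave the ribosome. Its signal was 1956, 1923 and 2049 in the controls, and 964.7, 427.8 and 664.5 in Dobermans K, L and R. All 3 Dobermans lay far below the controls, and the change was -1.58 ± 0.24 (SE) on the log2 scale, or 2.99-fold lower (adjusted p = 0.00338). It passed whichever single sample was left out, with changes of -1.86 to -1.29, and with K alone it was -1.02. A second tested probe set of MRPL1 gave a change of -1.67 (adjusted p = 0.00507).

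MRPL48, a protein of the large subunit with no bacterial counterpart by that name, had signals of 3572, 5084 and 3514 in the controls and 1830, 1781 and 1720.1 in Dobermans K, L and R. The Dobermans were close to each other and all lay below every control. The change was -1.16 ± 0.18 (2.24-fold lower, adjusted p = 0.00338), passed with any single sample left out, and was -1.12 with K alone. MRPL39, a protein found only in mitochondrial ribosomes, had signals of 3917, 3312 and 3704 in the controls and 2074, 1183 and 2333 in the Dobermans. The groups did not overlap, the change was -1.02 ± 0.21 (2.02-fold lower, adjusted p = 0.0101), and it was -0.80 with K alone.

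MRPL3 is the counterpart of the bacterial protein L3, which reaches towards the centre where peptide bonds form, and MRPL3 variants have been found in people with cardiomyopathy and mitochondrial disease. Its signal was 3158, 3320.4 and 2995 in the controls and 2105, 920.6 and 1789 in the Dobermans. No Doberman reached the controls, L lay lowest, and the change was -1.05 ± 0.24 (2.07-fold lower, adjusted p = 0.0134). MRPL40 had signals of 5785, 4531 and 4229.7 in the controls and 2363, 2754 and 1716 in the Dobermans. These groups were also apart, with R lowest, and the change was -1.10 ± 0.24 (2.14-fold lower, adjusted p = 0.0106). Both genes passed with any single sample left out but not with K alone, at -0.58 for MRPL3 and -1.02 for MRPL40.

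MRPL42 gave the largest fall of the 57, and K differed most from L and R in it. Its signals were 3044, 2385 and 2543 in the controls, and 2219, 333.8 and 457.7 in K, L and R. K lay just under the lowest control, whereas L and R lay far below. The change of -1.89 ± 0.47 (3.70-fold lower, adjusted p = 0.0162) did not pass without control P1 (-1.79), without L (-1.37) or without R (-1.59), and was -0.25 with K alone. A second probe set of MRPL42 passed at -0.62 (adjusted p = 0.0487). MRPL32, whose maturation by a mitochondrial protease is known in yeast and mouse as a step in ribosome assembly, had signals of 1963, 2922 and 1953 in the controls and 1473, 418.7 and 1144 in the Dobermans. The groups did not overlap, with L lowest. Its change of -1.31 ± 0.35 (2.48-fold lower, adjusted p = 0.020) did not pass without control P4 (-1.12) or with K alone (-0.60).

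MRPL45 lies at the mouth of the exit tunnel and holds the ribosome to the inner membrane. Its signals were 2457, 2384 and 2433 in the controls and 1102, 2157 and 1353 in the Dobermans. All 3 lay below the controls, with K lowest and L near them. The change was -0.71 ± 0.22 (adjusted p = 0.0368) and -1.13 with K alone, but it did not pass when P1 (-0.70), P4 (-0.72), P9 (-0.71), K (-0.50) or R (-0.65) was left out, and the second probe set gave -0.13 (adjusted p = 0.768).

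Of the other large subunit genes that fell, MRPL11 (the counterpart of bacterial L11, at the base of the stalk that binds translation factors) changed by -0.90, MRPL15 by -0.96, MRPL17 by -0.94, MRPL18 by -0.66, MRPL9 by -0.63, MRPL47 by -0.53 and MRPL22 by -1.28. MRPL22 is the counterpart of bacterial L22, which lines the exit tunnel. A second tested probe set of MRPL47 gave -0.24 (adjusted p = 0.475 in limma). None of these 7 passed with K alone, where the changes were -0.58 to 0.01, and each lost its call when some single samples were left out: 5 of the 6 for MRPL11, MRPL18 and MRPL22, 4 for MRPL15, MRPL17 and MRPL9, and 3 for MRPL47. The values without 1 sample ran from -1.25 to -0.64 for MRPL11, -1.32 to -0.71 for MRPL15, -1.24 to -0.72 for MRPL17, -0.80 to -0.49 for MRPL18, -0.74 to -0.53 for MRPL9 and -0.65 to -0.45 for MRPL47. For MRPL22, with signals of 492.9, 366.0 and 693.7 in the controls and 503.5, 91.9 and 154.6 in the Dobermans, K lay among the controls. Without 1 sample its change was -1.93 to -0.80, and with K alone it was 0.01.

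In the small subunit, MRPS28, MRPS35, MRPS5 and MRPS7 fell. MRPS28 had signals of 2004, 1752 and 1622 in the controls and 1173, 496.3 and 1044 in the Dobermans. Every Doberman was below every control and L was lowest. The change was -1.06 ± 0.26 (2.08-fold lower, adjusted p = 0.0147) and did not pass without control P1 (-0.98) or with K alone (-0.60). MRPS5, the counterpart of bacterial S5 near the entry of the messenger RNA, had signals of 404.3, 418.5 and 445.3 in the controls and 234.0, 233.8 and 228.7 in the Dobermans, which were nearly equal to each other and all below the controls. The change was -0.82 ± 0.21 (1.77-fold lower, adjusted p = 0.0177) and did not pass without P4 (-0.83), without P9 (-0.78) or with K alone (-0.81).

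MRPS7, the counterpart of the bacterial protein S7 that organises the head of the small subunit, changed by -0.73 ± 0.19 (adjusted p = 0.0184), and by -0.38 with K alone, where it did not pass. It also lost the call without P1 (-0.70), P4 (-0.74) or R (-0.52). MRPS35 changed by -0.95 ± 0.33 (adjusted p = 0.0482) and by -0.17 with K alone; leaving out any control (-0.86, -1.08 and -0.92 without P1, P4 and P9), L (-0.56) or R (-0.96) ended its call. Its groups overlapped, since K (890.8) lay above the lowest control (837.4), whereas MRPS7 had no overlap.

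The 2 genes that rose in the Dobermans were MRPL52 and MRPS12. MRPL52, a large subunit protein known only from mitochondria, had signals of 1121, 1397 and 1387 in the controls and 2028, 3342 and 2561 in Dobermans K, L and R. All Dobermans lay above all controls, with L highest. The change was 0.99 ± 0.19 (1.99-fold higher, adjusted p = 0.00730), passed without any single sample and was 0.64 with K alone, where it did not pass. MRPS12 is the counterpart of bacterial S12, a protein of the decoding centre that sets the accuracy of translation. Its signals were 1043, 992.0 and 1149 in the controls and 1727, 1842 and 1876 in the Dobermans, so the groups were apart and the Dobermans close together. The change was 0.77 ± 0.19 (1.70-fold higher, adjusted p = 0.0151); it did not pass without P4 (0.72), with K alone (0.70) or with each array centred on its median (0.33). Next by p above 0, MRPL23 (0.58), MRPS18A (0.33) and MRPS18C (0.43) did not pass, and with median centring they were 0.14, -0.11 and -0.01; MRPL23 passed without K, at 0.97. With K alone the 3 were -0.20, 0.17 and 0.21.

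**Figure D3:**
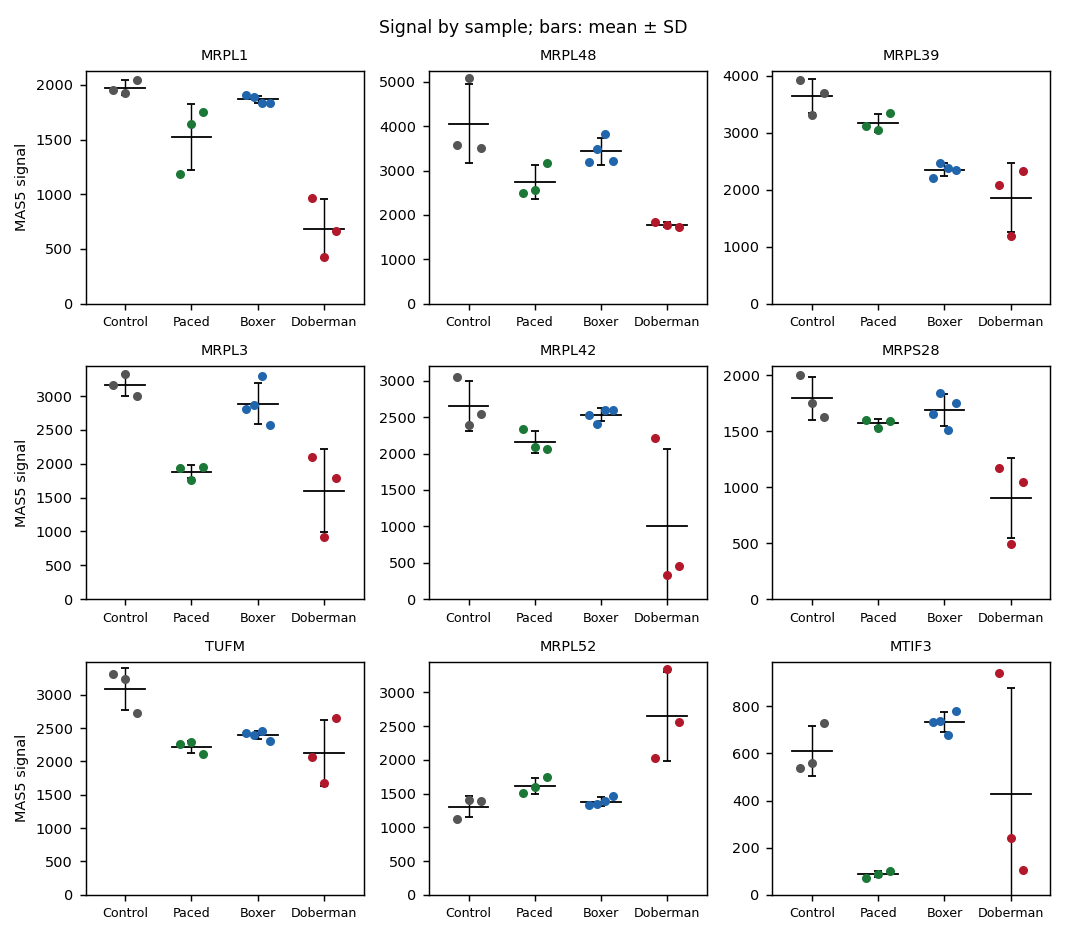
MAS5 signal (linear scale, arbitrary units) of 9 genes in each sample of the 4 groups, with group means and SDs as bars; bars that would reach below 0 are cut at 0. The 3 Dobermans lie below all controls for MRPL1, MRPL48, MRPL39, MRPL3, MRPL42, MRPS28 and TUFM and above them for MRPL52, and the 3 paced samples of MTIF3 lie between 72.8 and 100.2.

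Of the translation factors, TUFM is the mitochondrial elongation factor Tu, which brings charged transfer RNA to the ribosome. Its signals were 3309, 3237 and 2732 in the controls and 2060, 1676 and 2647 in the Dobermans. R lay close under the lowest control and L was lowest. The change was -0.56 ± 0.18 (1.47-fold lower, adjusted p = 0.0362) and did not pass without P1 (-0.51), P4 (-0.52) or L (-0.40), with K alone (-0.58), or after quantile normalization (-0.40). MTIF2, the initiation factor that places the first transfer RNA, had a change of -0.13 ± 0.21 (adjusted p = 0.663), and of -0.39 with K alone. MTIF3, the initiation factor that keeps the subunits apart until a message is bound, had signals of 538.5, 561.1 and 730.0 in the controls, and 941.4, 241.4 and 105.3 in K, L and R. K lay above the controls and L and R below them, and the change of -1.0 ± 0.51 did not pass (adjusted p = 0.147); without K it was -1.81 and passed, and with K alone it was 0.63, of the opposite sign, and did not pass.

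A few markers of other cells passed in the Dobermans against the controls: 1 of 4 tested lymphocyte markers was higher, 2 of 6 fibroblast markers were higher, and of 6 macrophage and monocyte markers 1 was higher and 1 lower. Over all tested genes 26.0% passed there, 11.9% higher and 14.1% lower, and lists this short cannot be told apart from that share. None of 4 endothelial, 3 smooth muscle and pericyte, 3 atrial muscle, 2 adipocyte and 1 skeletal muscle markers passed in limma. The summed signal of 4 lymphocyte markers (of 7 listed) was 990 to 1954 in the Dobermans and 612 to 864 in the controls, and that of 6 of 8 fibroblast markers was 19816 to 29517 against 12668 to 20439, so that the lymphocyte sums were apart and the fibroblast sums overlapped. No marker on the array was listed at 0 in any of these lists. Of the cardiomyocyte markers 1 of 11 fell, with a median change of 0.47 over the list. In tissue RNA, fewer cells of a type and less RNA of a gene per cell cannot be told apart, and the part of these markers in the changes of the 57 genes was not tested.

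In the paced mongrels 3 of the 57 genes fell and none rose against the controls: MTIF3, MRPL38 and MRPL47. Over all tested genes 9.24% passed, 4.05% lower and 5.19% higher, against 5.26% of the 57, all lower. The median change of the 57 was -0.25, and that of all tested genes was -0.04. All paced samples lay below all controls for 24 of the 57 genes and above them for 5, against 22.6% and 19.6% of all tested genes. With each array centred on its median the change of all genes shifted to a median of -0.55. In that setting 23 of the 57 were lower, where 29.9% of all tested genes were. With only the paced mongrels and controls in the fit 11 of the 57 were lower and 1 higher, where 21.8% of all tested genes passed. After quantile normalization the median of the 57 was -0.11 and that of all tested genes -0.06.

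The signal of MTIF3 was 72.8, 89.5 and 100.2 in paced mongrels LV01, LV02 and LV04, against 538.5, 561.1 and 730.0 in the controls. The 3 paced samples lay close together and far below all controls. The change was -2.59 ± 0.51 (6.03-fold lower, adjusted p = 0.00697). It passed under every alternative in which MTIF3 was tested, with changes of -3.10 to -2.15, and of -2.68 to -2.46 when a single sample was left out. Signals of this size were below the 108 of the filter, so MTIF3 entered the test only through the other groups. The change was -2.79 with a pseudocount of 1 and -2.15 with 64. A second probe set of MTIF3 had signals of 3.4 to 16.4 and was not tested.

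MRPL38 and MRPL47, both of the large subunit, changed less. MRPL38 had signals of 779.4, 736.7 and 747.7 in the controls and 429.0, 518.0 and 518.9 in the paced mongrels. The groups were apart, with LV01 lowest, and the change was -0.62 ± 0.17 (1.53-fold lower, adjusted p = 0.0323). MRPL47 had signals of 3033, 3106 and 2531 in the controls and 2032, 1843 and 1978 in the paced mongrels, again without overlap, and changed by -0.56 ± 0.16 (1.47-fold lower, adjusted p = 0.0396). MRPL38 lost its call whichever sample was left out, at -0.59, -0.63 and -0.62 without P1, P4 and P9 and at -0.53, -0.66 and -0.66 without LV01, LV02 and LV04. MRPL47 lost it without P1 (-0.52), P4 (-0.50), LV01 (-0.59), LV02 (-0.52) or LV04 (-0.57) and after quantile normalization (-0.38), and a second probe set of it gave 0.32 (adjusted p = 0.431).

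The largest change after MTIF3 that did not pass was that of MRPS27, at -1.79 ± 0.59 (adjusted p = 0.0646), with signals of 298.6, 300.6 and 235.1 in the controls and 113.3, 121.4 and 18.3 in the paced mongrels. All paced samples were lower, and LV04 was far below LV01 and LV02. MRPL3 changed by -0.74 ± 0.24 (adjusted p = 0.0635), with paced signals of 1938, 1767 and 1948, all below the controls. TUFM changed by -0.47 ± 0.18 (adjusted p = 0.0946), with paced signals of 2259, 2289 and 2118, also below every control. The changes above 0 of smallest p were those of MRPL33 (0.47), MRPL22 (0.86) and MRPS18C (0.46), none of which passed, and with median centring they were -0.04, 0.35 and -0.05. The summed cardiomyocyte markers, 203491 to 227865, lay below the lowest control in all 3 paced mongrels although none of the 11 markers passed, and the 4 lymphocyte markers summed to 1016 to 1245, above all controls. Of these 4, 1 was higher and 1 lower, and 1 of 6 fibroblast markers was higher and 1 of 4 endothelial markers lower. Over all tested genes 5.19% were higher and 4.05% lower. The part of these markers in the values was not tested.

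In the Boxers none of the 57 genes passed in limma against the controls, and 3 had an unadjusted p under 0.05. Over all tested genes 0.0573% passed, 0.0382% lower and 0.0191% higher, and 8.51% had an unadjusted p under 0.05. The median change of the 57 was -0.08 and that of all tested genes -0.02, and the sample medians were -0.11, -0.04, 0.01 and -0.16 in Boxers 1 to 4. All Boxers lay below all controls for 11 of the 57 genes and above them for 2, against 9.77% and 7.94% of all tested genes. The changes below 0 of smallest p were those of MRPL39 (-0.63 ± 0.20, adjusted p = 0.457), TUFM (-0.36 ± 0.16, adjusted p = 0.667) and MRPL2 (-0.56 ± 0.26, adjusted p = 0.667). MRPL39 had Boxer signals of 2210, 2474, 2388 and 2339, all below the lowest control of 3312, and TUFM had Boxer signals of 2419, 2401, 2451 and 2305, all below the lowest control of 2732. Those above 0 of smallest p, MRPS18C (0.40), MRPL33 (0.24) and MRPS18B (0.26), did not pass either. With array weights 1 gene passed, lower, where 1.98% of all tested genes passed, and 11 had an unadjusted p under 0.05. With only the Boxers and controls in the fit none of the 57 passed in limma, and 10 had an unadjusted p under 0.05. Of all tested genes 0.21% passed in that fit. A p that misses the threshold does not show that the Boxers and controls were alike.

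The Dobermans were then set directly against the Boxers, the only test of a difference between the breeds here. Of the 57 genes 14 were lower and 3 higher in the Dobermans, or 29.8%, where 34.2% of all tested genes passed, 17.4% lower and 16.8% higher. The median change was -0.30, against 0.04 over all tested genes. All Dobermans lay below all Boxers for 14 of the 57 genes and above them for 3, against 15.3% and 18.6% of all tested genes. With each array centred on its median 38 of the 57 were lower and none higher. Of all tested genes 37.1% were lower there and 3.84% higher. With K as the only Doberman 2 genes passed, both lower, where 2.46% of all tested genes passed, and the median of the 57 was -0.09. Without L the count was 10, where 15.9% of all passed, and without K it was 26, where 54.2% did. With the GAPDH ratio as a covariate none of the 57 passed in limma, and 11 had an unadjusted p under 0.05. Of all tested genes 0.42% passed in that fit. Of the 11 cardiomyocyte markers 5 were higher and 1 lower in the Dobermans than in the Boxers, although the summed signals overlapped. The sum of K, 250813, lay among those of the Boxers, and those of L and R lay above them. Of the markers of other cells, 1 of 4 for lymphocytes was higher and 1 of 6 for macrophages and monocytes lower, and their part in the differences was not tested.

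The genes lower in all Dobermans than in all Boxers with the largest changes were MRPL42 (-1.83 ± 0.44), MRPL1 (-1.50 ± 0.23), MRPS22 (-1.42 ± 0.46), MRPL15 (-1.15 ± 0.24) and MRPL32 (-1.10 ± 0.33). The Boxer signals of MRPL1 were 1906, 1888, 1835 and 1839, nearly equal to each other and above all Dobermans. Those of MRPL42 were 2529, 2404.5, 2598 and 2596, above K and far above L and R. MRPL1 (adjusted p = 0.00245) and MRPL15 (adjusted p = 0.00627) passed with any single sample left out, and with K alone the changes were -0.94, which passed, and -0.43, which did not.

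MRPL42 (adjusted p = 0.0102) lost its call without L (-1.31) and with K alone (-0.19), and MRPL32 (adjusted p = 0.0222) without Boxer 2 (-1.0), without L (-0.56) or with K alone (-0.38). MRPS22, a protein of mitochondrial ribosomes only, had signals of 752.5, 128.0 and 915.4 in K, L and R and of 1402, 1021, 1266 and 1306 in the Boxers. No Doberman reached the Boxers, and L lay far below K and R. Its change (adjusted p = 0.0302) did not pass without Boxer 1 (-1.36), 3 (-1.41) or 4 (-1.40), without L (-0.57), with K alone (-0.71) or after quantile normalization (-1.52).

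The 3 genes higher in the Dobermans than in the Boxers were MRPL52 (0.90 ± 0.18, adjusted p = 0.00521), MRPS12 (0.74 ± 0.17, adjusted p = 0.00945) and MRPS25 (0.56 ± 0.18, adjusted p = 0.0292). The Boxer signals of MRPL52 were 1329.5, 1341, 1388 and 1465, and those of MRPS12 were 1124, 934.6, 1262 and 1026, all below every Doberman. With K alone the changes were 0.55, 0.67 and 0.20, and none of the 3 passed; with median centring they were 0.39, 0.23 and 0.05, and again none passed. MRPS25 also lost its call without Boxer 2 (0.49) or 3 (0.51), without L (0.49) or without R (0.44). A second tested probe set of MRPS25 gave 0.46 (adjusted p = 0.164 in limma). MRPL58, a peptidyl-transfer RNA hydrolase built into the large subunit, was lower in the Dobermans (-0.69 ± 0.19, adjusted p = 0.0158) and was, with MRPL1, 1 of the 2 genes that passed with K alone, at -0.89; without L it was -0.57 and did not pass.

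Against the paced mongrels, 9 of the 57 genes were lower and 3 higher in the Dobermans, where 24.7% of all tested genes passed, 11.1% lower and 13.6% higher. The median change was -0.22, against -0.01 over all tested genes, and it was -0.03 with K alone. With median centring 3 genes were lower and 3 higher, where 6.51% of all tested genes were lower and 15.8% higher. All Dobermans lay below all paced mongrels for 16 of the 57 genes and above them for 4, against 14.9% and 17.9% of all tested genes. Among the genes that passed, those lowest without overlap were MRPL22 (-2.14 ± 0.43, adjusted p = 0.00456), MRPS35 (-1.27 ± 0.33, adjusted p = 0.0148), MRPL1 (-1.19 ± 0.24, adjusted p = 0.00493), MRPS28 (-0.88 ± 0.26, adjusted p = 0.0248) and MRPL40 (-0.85 ± 0.24, adjusted p = 0.0219). The MRPL22 signals of the paced mongrels were 954.4, 758.2 and 1081, above all Dobermans and also above all controls. Only MRPL1 and MRPL22 passed whichever single sample was left out, and with K alone neither did, at -0.63 and -0.85. Of the genes that did not pass, MRPS22 (-1.37, adjusted p = 0.0572, -0.65 with K alone) and MRPL32 (-0.93, adjusted p = 0.0666) also lay lower in all Dobermans. Of the 11 cardiomyocyte markers 8 were higher in the Dobermans than in the paced mongrels and none lower, with a median change of 0.84, and the summed signals did not overlap. The sum was 250813 in K and 493978 and 461598 in L and R, against at most 227865 in the paced mongrels. Higher too were 2 of 4 endothelial markers, 1 of 6 for fibroblasts, 1 of 6 for macrophages and monocytes, 1 of 3 for smooth muscle and pericytes and the 1 tested for skeletal muscle, and of 4 lymphocyte markers 1 was higher and 1 lower. The part of these markers in the differences was not tested.

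The others lost the call in this comparison when single samples were left out: MRPS35 without LV04 (-1.10), MRPS28 without LV01 (-0.87), LV02 (-0.90) or LV04 (-0.87), and MRPL40 without LV01 (-0.83), LV02 (-0.74) or R (-0.66). With median centring MRPS28 (-0.81) and MRPL40 (-0.78) did not pass, and with K alone MRPS35 (-0.49), MRPS28 (-0.42) and MRPL40 (-0.77) did not. The other genes lower in the Dobermans were MRPL18 (-0.72), MRPL39 (-0.82), MRPL42 (-1.60) and MRPL48 (-0.61). With K alone these were -0.44, -0.61, 0.04 and -0.57, and of them MRPL39 passed. The count of 12 was 6, 4 and 5 without LV01, LV02 and LV04, where 14.7%, 14.4% and 14.6% of all tested genes passed, and 22 without K, where 44.1% did. With K alone it was 6, where 15.1% of all passed, and the balance turned, with 4 of the 57 higher and 2 lower. Among the rises, MRPS12 changed by 0.74 ± 0.19 (adjusted p = 0.0127) and MRPL52 by 0.68 ± 0.19 (adjusted p = 0.0205). MRPS12 did not pass without LV01 (0.67) or LV02 (0.64), and MRPL52 not without L (0.50), LV01 (0.63) or LV02 (0.67); with K alone, at 0.67 and 0.33, neither passed. The second tested probe set of MRPS12 was lower in all 3 Dobermans than in all 3 paced mongrels (-0.99 ± 0.22, adjusted p = 0.00752), the opposite of the brightest. MTIF3 was higher in the Dobermans by 1.59 ± 0.51 (adjusted p = 0.0359) and by 3.22 with K alone, but its change did not pass without L (1.73), LV01 (1.49), LV02 (1.61) or LV04 (1.68) or with median centring (1.66), and it was 0.78 without K. R, at 105.3, lay only just above the highest paced sample, at 100.2.

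Between Boxers and paced mongrels 1 of the 57 genes passed, MTIF3, where 14.2% of all tested genes did, 5.84% higher and 8.38% lower in the Boxers. All Boxers lay above all paced mongrels for 18 of the 57 genes and below them for 7, against 21.9% and 19.9% of all tested genes. The Boxer signals of MTIF3 were 735.0, 736.8, 678.4 and 780.6, close together and far above the paced signals of 72.8 to 100.2. The change was 2.86 ± 0.47 (7.27-fold, adjusted p = 0.00205) and passed under every alternative in which the gene was tested, with changes of 2.40 to 3.44. The median change of the 57 genes was 0.10 and that of all tested genes 0.05; after quantile normalization the median of the 57 was -0.05, so it had no settled sign. With median centring, which shifted the median of all genes to 0.63, 27 of the 57 genes were higher in the Boxers. Of all tested genes 41.1% were higher there. With only the Boxers and paced mongrels in the fit 10 of the 57 were higher and 4 lower, where 33.2% of all tested genes passed. Next by p, MRPS18B (0.55), MRPS33 (0.90) and MRPL3 (0.61) were higher and MRPL18 (-0.46), MRPL39 (-0.43) and MRPS25 (-0.36) lower, none of which passed. With median centring the last 3 were above 0, and MRPS18B passed without LV02, at 0.69, which made the count 2. Of 4 lymphocyte markers 1 was higher and 2 lower, and 1 of 4 endothelial and 1 of 6 macrophage and monocyte markers were higher. Summed cardiomyocyte, fibroblast, smooth muscle and pericyte, and macrophage and monocyte markers were higher in all Boxers. Summed lymphocyte markers were lower in all Boxers. The part of these markers in the differences was not tested.

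Over all groups, then, the level of MTIF3 was ordered as paced mongrels, with a mean signal of 87.5 ± 13.8 (SD, n = 3), Dobermans, 429 ± 449 (SD, n = 3), controls, 609.9 ± 105 (SD, n = 3), and Boxers, 733 ± 41.9 (SD, n = 4). The Dobermans spanned the controls and the Boxers, and the controls overlapped with the Boxers. MTIF2 had signals of 363.9, 362.5 and 462.1 in the controls, 296.9, 324.5 and 479.9 in the Dobermans, 501.3, 460.8 and 521.3 in the paced mongrels and 404.2, 456.4, 442.9 and 355.3 in the Boxers. The controls overlapped with each other group, and no comparison of MTIF2 passed, with changes of -0.44 to 0.32. With K alone its changes against the Boxers and paced mongrels were -0.45 and -0.70, and those of MTIF3 0.36 and 3.22.

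Other genes named whatever their result were MRPS16 and MRPS22, both of which are disease genes of mitochondrial translation in humans. MRPS16 had signals of 2599, 3003 and 2946 in the controls, 3447, 2104 and 2171 in the Dobermans, 1983, 2031 and 2695 in the paced mongrels and 2127, 2672, 1724 and 2682 in the Boxers. All groups overlapped, and its changes of -0.36 to 0.18 did not pass in any of the 6 comparisons; with K alone they were 0.28, 0.60 and 0.63 against the controls, Boxers and paced mongrels. MRPS22 was near the controls in the paced mongrels (-0.01 ± 0.49) and Boxers (0.05 ± 0.46); in the Dobermans its change from the controls, -1.37 ± 0.49 (adjusted p = 0.0539), passed without K (-1.73) or without R (-1.87) and was -0.66 with K alone. MRPL3 changed by -0.13 ± 0.23 in the Boxers, and its Doberman level differed from that of the Boxers (-0.92 ± 0.23, adjusted p = 0.0115) but not beyond the threshold from that of the paced mongrels (-0.31 ± 0.24, adjusted p = 0.368). With K alone these were -0.45 and 0.16, and neither passed.

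Of the 57 genes 16 had several probe sets, and 14 had several that were tested. For 8 of these the calls of the probe sets differed in some comparison: MRPL14, MRPL45, MRPL47, MRPL52, MRPS12, MRPS15, MRPS25 and MRPS28. For MRPL14 and MRPS12 they were opposite. The brightest probe set of MRPL14 did not change in the Dobermans beyond the threshold against the controls (0.20, adjusted p = 0.475), a second was lower in all 3 Dobermans (2049, 919.5 and 1444, against 2959, 3139 and 2443 in the controls, a change of -1.01, adjusted p = 0.0137), and the third was higher in all 3 (1501, 3118 and 2523, against 1269, 1387 and 1282, a change of 0.79, adjusted p = 0.0406). The 2 that passed moved most in L and R, in opposite directions.

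For MRPS12 the rise in the Dobermans was seen on the brightest probe set only: the second gave 0.18 (adjusted p = 0.559) and the third 0.45 (adjusted p = 0.345). The second was instead high in the paced mongrels, at 1002, 1044 and 1089.6 against 448.7, 498.9 and 425.9 in the controls, a change of 1.17 (adjusted p = 0.00613), while the brightest gave 0.02 (adjusted p = 0.953). It was also lower in all Boxers than in all paced mongrels, at -1.20 (adjusted p = 0.00244). The probe sets of MRPL14 and MRPS12 thus gave no single direction for these genes. The second probe set of MRPL52 gave 1.15 in the Dobermans against the controls, the direction of the first, without passing (adjusted p = 0.145), and 1 of the 3 other tested probe sets of MRPS15 fell there (-0.80, adjusted p = 0.0105). That of MRPS28 fell in limma against the controls (-0.92, adjusted p = 0.0486). It did not pass against the Boxers (-0.63, adjusted p = 0.108) or paced mongrels (-0.80, adjusted p = 0.0804).

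**Figure D4:**
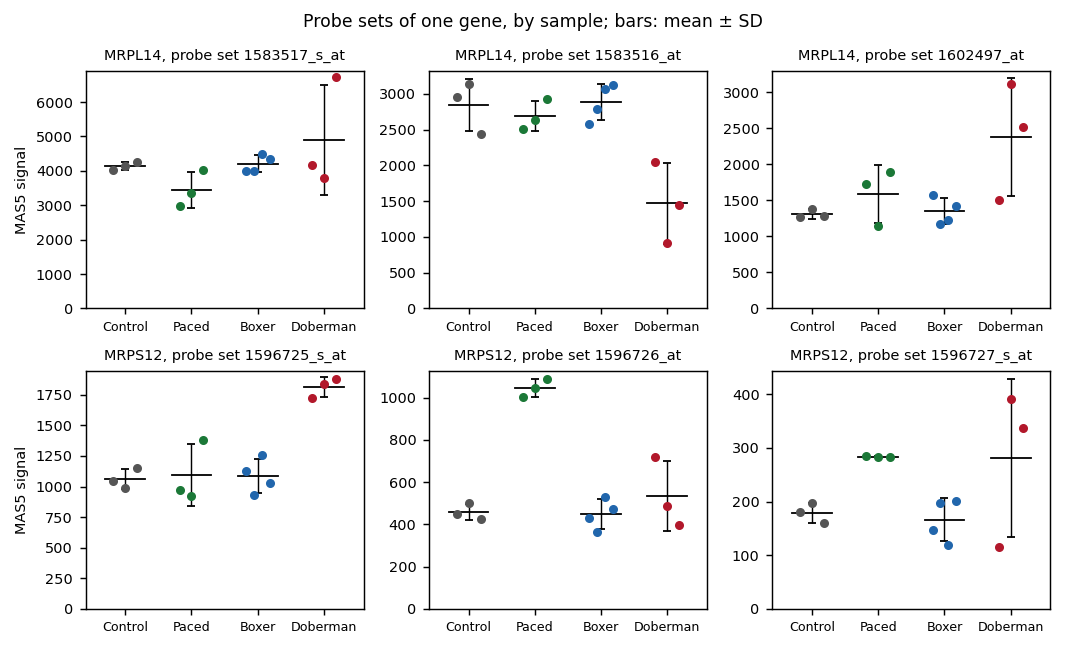
MAS5 signal (linear scale, arbitrary units) in each sample for the 3 probe sets of MRPL14 (top) and of MRPS12 (bottom), with group means and SDs. In MRPL14 the second probe set is lower and the third higher in the Dobermans than in the controls, and in MRPS12 the first is high in the Dobermans and the second in the paced mongrels.

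Other genes of mitochondrial translation and its supply were listed for comparison: ribosomal proteins with other names, further translation factors, mitochondrial aminoacyl-transfer RNA synthetases, assembly and RNA-processing factors, factors of mitochondrial DNA transcription and replication, and regulators of mitochondrial biogenesis. Of 97 listed, 37 were tested. In the Dobermans 8 of the 37 were lower and 2 higher than in the controls, or 27.0%, near the 26.0% of all tested genes, with a median change of -0.13. None passed with K alone. The count of 10 was 5, 4 and 5 without P1, P4 and P9, 2 without L, 5 without R and 21 without K. Of all tested genes 10.1%, 11.6%, 12.7%, 8.97%, 13.7% and 49.2% passed in these fits, in that order. The 3 of smallest adjusted p were OXA1L, the inner membrane insertase to which the ribosome docks (-0.88 ± 0.17, adjusted p = 0.00730), MTRF1L, a release factor (-1.42 ± 0.30, adjusted p = 0.00972), and GATC, a subunit of the enzyme that makes glutamine-charged transfer RNA (-1.46 ± 0.34, adjusted p = 0.0136). OXA1L had signals of 4555, 5293 and 4728 in the controls and 3371, 2387 and 2251 in the Dobermans, without overlap. With K alone the 3 changes were -0.52, -1.35 and -0.36, and GATC did not pass without L (-1.31). The Doberman signals of MTRF1L, 41.6, 53.2 and 25.3, lay under the filter level. MTRF1L therefore passed the filter only through the other groups.

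A larger fall, noticed after the values were seen, was that of GFM1, the elongation factor that moves the ribosome along the message (-2.20 ± 0.56, adjusted p = 0.0168). Its signals were 3349, 3729.5 and 3242 in the controls, and 2922, 361.6 and 365.8 in K, L and R. K was just below the controls and L and R far below, as for MRPL42. GFM1 did not pass without P4 (-2.14), L (-1.70) or R (-1.71), and was -0.23 with K alone.

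Of the same 37 genes 2 were lower and 1 higher in the paced mongrels than in the controls, or 8.11%, beside 9.24% of all tested genes: GABPA, a transcription factor of many nuclear genes for mitochondrial proteins (-1.25 ± 0.26, adjusted p = 0.00922), TSFM, the exchange factor of TUFM (-0.48 ± 0.15, adjusted p = 0.0465), and HARS2, a histidyl-transfer RNA synthetase (1.06 ± 0.32, adjusted p = 0.0430). GABPA had signals of 402.7, 487.9 and 555.4 in the controls and 157.1, 167.8 and 267.0 in the paced mongrels, without overlap, and passed with any single sample left out. TSFM and HARS2 lost their calls whichever sample was left out, with changes of -0.53 to -0.41 and of 0.92 to 1.23. The count was 1 without any single sample, where 4.2% to 5.92% of all tested genes passed. After quantile normalization neither passed (-0.30 and 0.63), and with median centring HARS2 did not (0.55). In the Boxers none of the 37 passed in limma against the controls, and 1 had an unadjusted p under 0.05.

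Between Dobermans and Boxers 8 of the 37 were lower and 5 higher in the Dobermans, or 35.1%, beside 34.2% of all tested genes. MTRF1L was under the filter level in all Dobermans, against 112.4 to 173.6 in the Boxers. Of smallest adjusted p in limma (0.00481, 0.00653 and 0.00807) were MTRF1L (-1.45 ± 0.28), LARS2, a leucyl-transfer RNA synthetase (1.14 ± 0.24), and MTG2, an assembly factor of the large subunit (1.34 ± 0.30). None of the 37 passed with K alone, the count was 8 without L and 21 without K, and the 3 changes were -1.38, 0.53 and 0.62 with K alone. Of all tested genes 15.9% differed between Dobermans and Boxers without L, and 54.2% without K. Between Dobermans and paced mongrels 6 of the 37 were lower and 4 higher, or 27.0%, beside 24.7% of all tested genes. Of smallest adjusted p in limma were MTRF1L (-1.74 ± 0.30, adjusted p = 0.00196) and POLG, the polymerase of mitochondrial DNA (0.83 ± 0.21, adjusted p = 0.0133). MTRF1L had signals of 144.8 to 194.3 in the paced mongrels, and entered the test only through groups other than the Dobermans. One of the 4 counted as higher was TEFM, an elongation factor of mitochondrial transcription. TEFM had signals of 89.4, 856.2 and 683.0 in K, L and R, against 26.5, 30.5 and 89.9 in the paced mongrels, so that K lay within the paced range. Without L and R its mean lay under the filter level, and the signals of K and of the paced mongrels were all under 108, so its difference is given as signals only. POLG did not pass without LV04 (0.65). With K alone the changes were -1.67 for MTRF1L, at a signal of 41.6 in K, and 0.67 for POLG. The count of 10 was 3, 2 and 2 without LV01, LV02 and LV04, 4 without L and 19 without K. Of all tested genes 14.7%, 14.4%, 14.6%, 17.6% and 44.1% passed in these fits, in that order. Between Boxers and paced mongrels GABPA alone passed, 2.70% of the 37 beside 14.2% of all tested genes (0.87 ± 0.24, adjusted p = 0.0266), but not without Boxer 1 (0.84), 3 (0.86) or 4 (0.86), LV01 (0.73) or LV02 (0.78).

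Finally, the mitoribosomal genes were placed beside the nuclear genes of the respiratory chain and the proteins of the cytosolic ribosome, with no test between the lists. In the Dobermans 22 of 57 respiratory chain genes fell against the controls and none rose, with a median change of -0.49, beside -0.53 for the mitoribosomal genes. This was 38.6% of the list, where 14.1% of all tested genes fell. The count of 22 was 7 without P1, 8 without P4, 9 without L and 7 with K alone, where 10.1%, 11.6%, 8.97% and 3.23% of all tested genes passed in either direction. It was 1 once the GAPDH ratio entered the fit, where 0.763% of all tested genes passed. It was 0 in limma when the fit held only the controls and Dobermans, where 0.153% did. Of 59 cytosolic ribosomal proteins 2 fell and 2 rose, or 6.78% where 26.0% of all tested genes passed, with a median of 0.07. Of these proteins 1 passed without any 1 of P1, P4, P9, L or R, 20 without K, where 49.2% of all tested genes passed, and none with K alone in limma. With median centring 16 of the 59 were lower and none higher, where 27.1% of all tested genes were lower and 2.63% higher. Sample by sample, the respiratory chain medians relative to the control mean were -0.46 in K, -0.84 in L and -0.28 in R, and the cytosolic medians were -0.16, -0.08 and 0.42. In the paced mongrels the medians were -0.25 for the mitoribosomal genes, -0.32 for the respiratory chain (3 of 57 lower) and -0.15 for the cytosolic ribosome (1 of 59 lower), and in the Boxers they were -0.08, -0.18 and 0.01, with no gene passing.

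**Figure D5:**
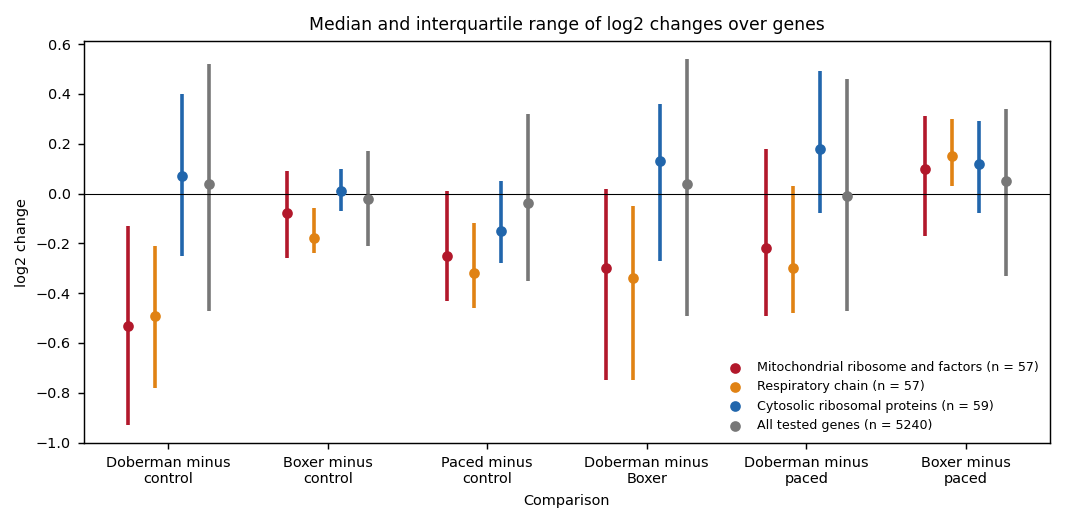
Median (point) and interquartile range (line) of the log2 changes in 6 comparisons for 57 mitochondrial ribosome and factor genes, 57 respiratory chain genes, 59 cytosolic ribosomal proteins and all 5240 tested genes. In the Dobermans against the controls the first 2 lists have medians of -0.53 and -0.49 and the other 2 have 0.07 and 0.04.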

How the data were processed

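Heart tissue RNA of 13 dogs' samples was labelled by a one-cycle protocol, per the labels' protocols. The authors deposited linear MAS5 intensities, per the submitters' processing notes (version not given in the sources used here). Control probe sets (77) were set aside, and log2(signal + 16) was used. Probe sets with a mean under the 40th percentile were left out, and 14302 were tested. A linear model with 1 mean for each of 4 groups was fitted to the 13 arrays in limma 3.58.1 (R 4.3.3; 9 residual degrees of freedom; variances moderated along a trend with intensity). In each of 6 comparisons a call needed a p under 0.05 after Benjamini-Hochberg adjustment across all probe sets tested; comparisons that share a group are not independent. Folds were taken on this log2 scale and understate changes of low signals.

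The annotation gave 10549 probe sets 1 symbol, 138 several and 13149 none. The members and comparison lists were chosen with earlier results of these data known. Named in each comparison were up to 5 rises and 5 falls that passed without overlap (or the 3 of smallest p where fewer than 3 passed), fixed genes (TUFM, MTIF2, MTIF3, MRPL3, MRPS12, MRPS16, MRPS22), the 3 highest and lowest mean signals, genes whose probe sets differed and the 3 listed other genes of smallest adjusted p; further genes were named to account for counts, chosen after their values were seen. Alternatives were pseudocounts of 1 and 64, median centring, quantile normalization, no filter or one at the 70th percentile, the compared groups alone, array weights, the GAPDH ratio as a covariate, all probe sets, each sample left out, and Dobermans L and R left out. The fit was also run on simulated data with the same spread in every group. The Dobermans varied more than that, so the simulation cannot show how reliable their calls were. The number of arrays limits the precision. Plots used matplotlib 3.10.9 under Python 3.11.15. No sequences or coordinates were used.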

Additional observations from a re-analysis of the deposited data

Results flagged for a closer look

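One sample stood away from its group: for MRPL30 of the large subunit, Boxer 4 had a signal of 1132 against 900.8, 904.1 and 889.3 in Boxers 1 to 3, and its gap to the nearest was 0.932 of the group's range on the log2 scale, above Dixon's critical value for 4 samples. The 57 genes were examined in the group of 4, and chance alone would mark about 1 in 20 such groups. A single mark among 57 genes is therefore no more than chance alone would give.

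For 17 genes the change from the controls differed between the breeds, by the direct test of Dobermans against Boxers. These were 29.8% of the 57, where 34.2% of all tested genes passed the same test. The Doberman minus Boxer changes were -1.50 for MRPL1, -1.15 for MRPL15, -0.99 for MRPL17, -1.38 for MRPL22, -0.92 for MRPL3, -1.10 for MRPL32, -0.79 for MRPL40, -1.83 for MRPL42, -0.94 for MRPL48, 0.90 for MRPL52, -0.69 for MRPL58, 0.74 for MRPS12, -1.42 for MRPS22, 0.56 for MRPS25, -0.98 for MRPS28, -0.86 for MRPS35 and -0.66 for MRPS7. Of these, 7 (MRPL1, MRPL15, MRPL3, MRPL48, MRPL52, MRPS12 and MRPS28) passed whichever single sample was left out, and MRPL1 and MRPL58 passed with Doberman K as the only Doberman.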

How the results depend on the processing

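Counts of the 57 genes that passed, and of the 37 other mitochondrial translation genes, moved with several choices. With median centring the counts of the 57 were 34 for Dobermans against controls, 23 for paced mongrels against controls, 38 for Dobermans against Boxers, 6 for Dobermans against paced mongrels and 27 for Boxers against paced mongrels, and those of the 37 were 10 for paced mongrels against controls, 22 for Dobermans against Boxers and 12 for Boxers against paced mongrels. In the order given for the 57, 29.7%, 31.7%, 40.9%, 22.3% and 43.4% of all tested genes passed with median centring. With only the compared groups in the fit the counts were, in that order, 0, 12, 8, 0 and 14 of the 57. Of the 37 they were 0, 6, 7, 0 and 10, where 0.153%, 21.8%, 13.5%, 3.07% and 33.2% of all tested genes passed. With the GAPDH ratio as a covariate the counts were 1, 10, 0, 1 and 4 of the 57. Of the 37 they were 0, 6, 0, 0 and 6, where 0.763%, 17.3%, 0.42%, 6.49% and 22.5% of all tested genes passed. With Dobermans L and R left out the 3 Doberman comparisons gave 4, 2 and 6 of the 57 and 0, 0 and 2 of the 37. Array weights gave 1 for Boxers against controls, 14 and 9 for paced mongrels against controls and 16 and 8 for Boxers against paced mongrels. Of all tested genes 1.98%, 26.6% and 33.3% passed with array weights. With no filter 5 of the 57 passed for paced mongrels against controls, where 14.1% of all tested genes did. For Boxers against paced mongrels 2 of the 57 and 3 of the 37 passed with no filter, where 19.2% of all tested genes did. With the filter at the 70th percentile, where MTIF3 was not tested, these 2 comparisons gave 0 and 0, where 2.75% and 5.45% of all tested genes passed. Of the 37, 7 passed there for Dobermans against Boxers and 5 for Dobermans against paced mongrels, beside 36.7% and 24% of all tested genes. Quantile normalization gave 1 of the 37 for paced mongrels against controls, where 8.41% of all tested genes passed. Counting every tested probe set gave 3 for Boxers against paced mongrels. With pseudocounts of 1 and 64 the counts of the 57 stayed within 1.5 times in all 6 comparisons.

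Leaving out 1 sample at a time gave 10 to 30 of the 57 for Dobermans against controls, 0 to 0 for Boxers against controls, 1 to 2 for paced mongrels against controls, 10 to 26 for Dobermans against Boxers, 4 to 22 for Dobermans against paced mongrels and 1 to 2 for Boxers against paced mongrels. Of the 37 it gave 2 to 21, 0 to 0, 1 to 1, 8 to 21, 2 to 19 and 0 to 2. The shares of all tested genes that passed moved too. Against the controls they were 8.97% to 49.2% for Dobermans, 0.0382% to 0.0954% for Boxers and 4.2% to 5.92% for paced mongrels. For Dobermans they were 15.9% to 54.2% against Boxers and 14.4% to 44.1% against paced mongrels. For Boxers against paced mongrels they were 6.64% to 9.89%.

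With L and R left out the changes of MRPL22 against the controls (0.01) and of MRPL42 (0.04) and GATC (0.09) against the paced mongrels turned sign, as did GATC there with the GAPDH ratio as a covariate (0.13); the cause was not tested. No paired analysis was possible because the groups share no replicate numbers in the labels. Signals near or under 108, as for MTIF3 in the paced mongrels, limit the size of a fold, and the number of arrays limits every test.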
